A study of Mus musculus and Homo sapiens with 12 samples.

Results

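Ddx21 was deleted in the blood lineage of mouse embryos, and messenger RNA of sorted liver progenitors was sequenced with and without the deletion. The experiment holds 3 conditional knockout (cKO) and 3 wild-type (WT) libraries, 6 of the 12 libraries of the study, and was taken by those labels and described across all genes. The cells are LK cells, progenitors that lack markers of mature blood lineages and carry the receptor Kit on their surface. They were sorted alive from fetal liver at the embryonic stage E13.5, with antibodies to Gr1, Cd11b, CD3, B220 and Ter119 as the lineage stain. The WT embryos carried loxP-flanked Ddx21 alleles (Ddx21f/f), with no Cre named in the label. The cKO embryos carried the same flanked alleles with Vav-Cre, a Cre recombinase under the promoter of the blood-restricted gene Vav1. No group carried Cre alone, so an effect of Cre cannot be told apart from that of the deletion. The labels do not say how many embryos went into a library or whether replicates came from separate litters, so p-values measure only the spread between these samples, which may be technical. Of 55487 annotated genes, 14918 had enough counts to be tested. The question asked was which transcripts of these progenitors differ when Ddx21 is lost.

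DDX21 is an RNA helicase that sits mostly in the nucleolus, where ribosomal RNA is transcribed and processed, and it also acts at the 7SK complex that holds back transcription elongation. When ribosome assembly is disturbed, free ribosomal proteins can bind MDM2, the ligase that marks p53 for destruction, and p53 then activates genes of cell cycle arrest, repair and death. The fetal liver at this stage is the main site of blood formation. Its LK compartment mixes stem cells with progenitors of red cells, megakaryocytes, granulocytes, monocytes and mast cells.

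The libraries held 21116079 to 23898130 counts, and a count was seen for 22600 to 22733 genes in WT and 23650 to 24035 in cKO. The leading principal component took 76% of the variance, with all WT libraries below 0 and all cKO libraries above 0. Libraries of 1 genotype also differed from each other with the GC content of transcripts. In the decile of genes richest in GC (57.2 to 74.2% GC), WT replicate 3 lay at a median of -0.26 and cKO replicate 2 at -0.27 from their genotype mean on the log2 scale, against 0.18 for WT replicate 1 and 0.28 for cKO replicate 1. In the same decile the median log2 fold change of cKO over WT was -0.27 and the median standard error (SE) 0.239, compared with 0.03 and 0.0986 in the decile poorest in GC. GC-rich genes were therefore measured with less precision. A fit with a GC offset, and a fit without those 2 libraries, are given for some of the results that they move, not for all. Kit itself had 359, 360.1 and 368 counts per 1000000 (CPM, scaled by TMM factors) in WT and 312, 322 and 317 in cKO. All cKO libraries were below all WT libraries, the log2 fold change being -0.19 (SE 0.032), a call that was not made with total-count scaling. Of 9 listed genes of the sort antigens, Kit included, 5 were tested. All 5 were called, 2 higher and 3 lower, against 36.5% of all genes. Their log2 fold changes ran from -3.142 to 0.978, and not all are named here. Itgam (Cd11b), a lineage gene, was at 3.45, 3.26 and 3.11 CPM in WT and 2.57, 2.47 and 2.18 in cKO. Cd3e and Cd3d had too few counts to test. Cd3g, another part of the CD3 complex, was tested at 0.404, 0.535 and 0.371 CPM in WT and 1.09, 0.648 and 0.862 in cKO.

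**Figure D1:**
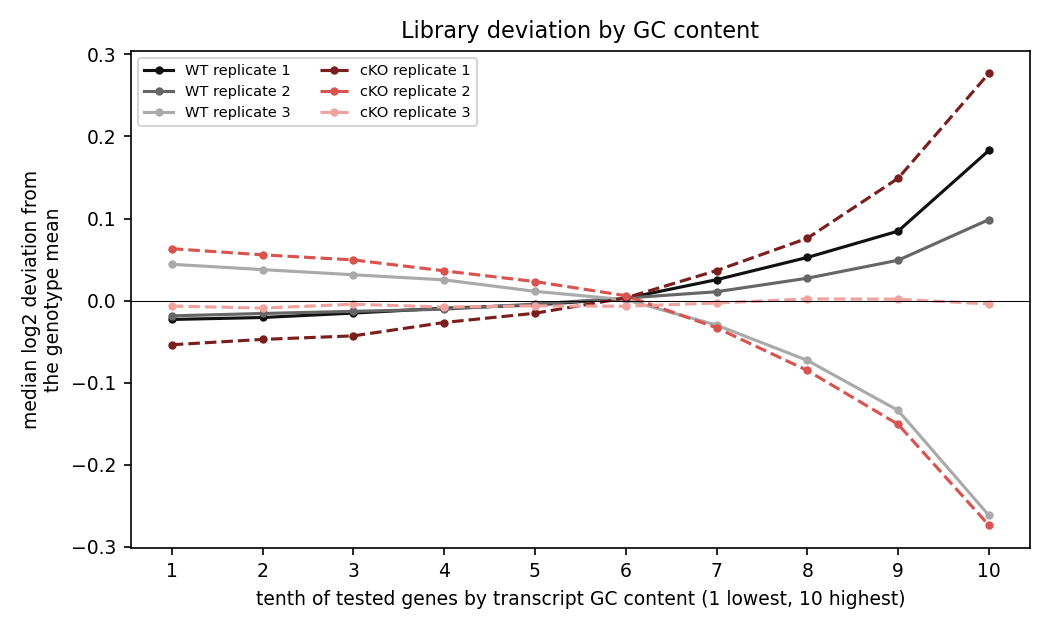
Median log2 deviation of each library from the mean of its genotype (vertical axis) in deciles of the tested genes ordered by transcript GC content (horizontal axis), with WT as solid and cKO as dashed lines. WT replicate 3 and cKO replicate 2 fall to -0.26 and -0.27 in the GC-richest decile, while WT replicate 1 and cKO replicate 1 reach 0.18 and 0.28.

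The targeted gene was read in every library. Ddx21 (ENSMUSG00000020075, chromosome 10, 62580251 to 62602281, minus strand, GRCm38) had 1410.0, 1431 and 1432 CPM in WT and 276, 283 and 282 CPM in cKO. The 3 cKO libraries lay close together and far below WT, and the mean was 19.7% of WT (log2 fold change -2.35, SE 0.033, adjusted p 5.91e-08). Adjusted p are by edgeR's quasi-likelihood test, adjusted after Benjamini and Hochberg over the 14918 tested genes, and a gene is said to have risen, fallen or been called at an adjusted p under 0.05. Reads were counted over the whole gene, so the value does not separate reads of the deleted exons from reads of the rest. Ddx50, its close paralog and chromosomal neighbour, had 96.4, 89.9 and 95.9 CPM in WT and 111, 118 and 117 in cKO and rose by 0.30 (SE 0.047, adjusted p 0.00260). Vav1, whose promoter drives the Cre and which lies outside the naming rule, had 68.8, 69.7 and 71.1 CPM in WT and 98.5, 105 and 98.8 in cKO, a rise of 0.53 (SE 0.044, adjusted p 0.000121). For both genes every cKO library exceeded every WT library.

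Across all genes 3083 rose and 2360 fell, 20.7% and 15.8% of those tested (36.5% in all), and the median log2 fold change was 0.000574. Increases of at least 2-fold made up 7.27% and decreases of at least 2-fold 1.8% of those tested. With total-count scaling 68.9% of the calls were increases, against 56.6% here. Increases and decreases sat at different levels. Of 2609 tested genes under 1 CPM in WT, 653 rose and 70 fell, and 267 of the increases were at least 4-fold. Of 2584 genes at 100 CPM or more, 262 rose and 913 fell, and only 4 of those increases, Ccng1, Ccnd2, Laptm5 and Man2b1, and 14 of the decreases reached 2-fold. Low-level genes enter the test through whichever genotype is higher, and a small change is easier to call at a high level, so these shares describe the calls and not the transcriptome. The rises from near silence included 79 genes with no more than 3 counts in every WT library, a level treated as the detection floor. Against that floor, Tnfsf4, a ligand of the tumour necrosis factor family, was at least 127-fold higher (3, 3 and 0 counts in WT, 401, 431 and 401 in cKO). Lif, a cytokine of the interleukin-6 family, was at least 67.1-fold higher (0, 3 and 0 counts in WT, 232, 220 and 202 in cKO), and was picked after its values were seen. Loss to the floor was seen for 3 genes, among them Klrk1 and Pou2af1, at least 5.93-fold and 6.32-fold lower. Laptm5, Man2b1, Klrk1 and Pou2af1 were named after their values were seen. These are levels in bulk RNA, where fewer cells of a type and less RNA per cell cannot be told apart.

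**Figure D2:**
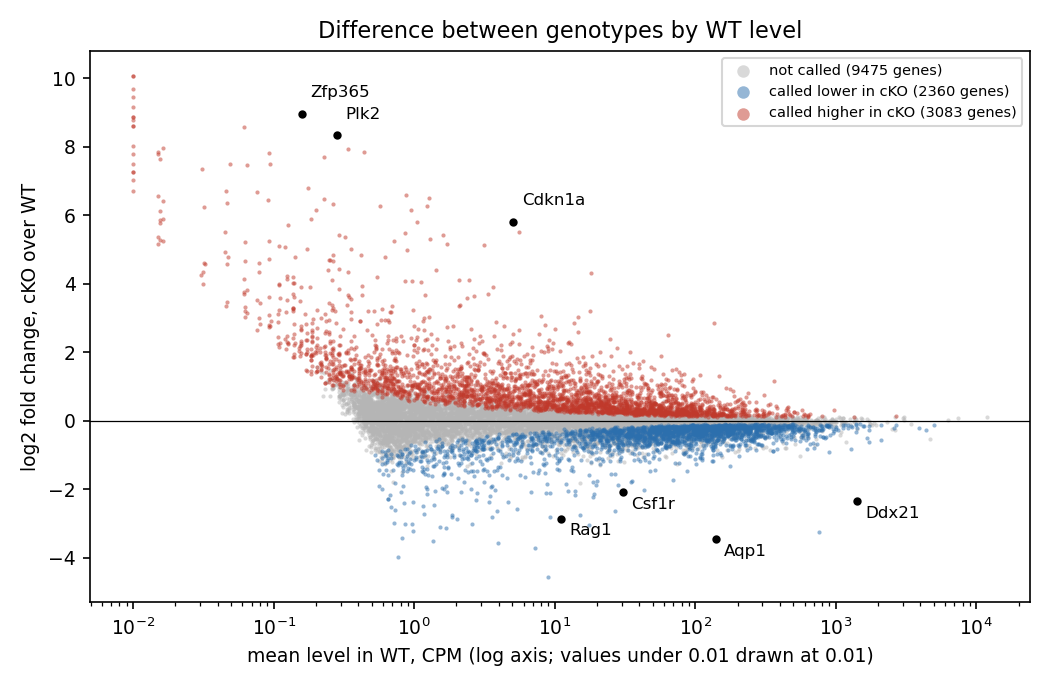
Log2 fold change of cKO over WT (vertical axis) against the mean WT level in CPM (log axis) for the 14918 tested genes, coloured by call. The 653 increases under 1 CPM form the upper left, and the decreases gather at higher levels, with Ddx21, Aqp1, Csf1r and Rag1 named below the line.

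Most genes that p53 activates rose, and the largest of these rises ran from a few CPM or less to levels many times higher. Among genes of arrest and feedback, 14 of 18 tested members were called higher and 0 lower (median log2 fold change 1.715). Among genes of cell death the counts were 12 higher and 1 lower of 16 (median 1.275), and among genes of repair and metabolism 10 higher and 1 lower of 19 (median 0.55). The shares called higher were 77.8%, 75% and 52.6%, against 20.7% of all genes. Over the alternative settings the 3 lists had 13 to 16, 10 to 14 and 9 to 12 increases.

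Cdkn1a encodes p21, the inhibitor of cyclin-dependent kinases through which p53 stops the cycle. Its GRCm38 promoter, by the RefSeq start, is shown for its match to the consensus of the p53 response element. Of the members of the 3 p53 lists with a RefSeq promoter, it alone held such a match. The window ran from 250 bases before to 50 bases after the start. The 80 bases before that start (chr17:29090899-29090978, plus strand, RefSeq, GRCm38.p6) read, with the consensus match in capitals:
Cdkn1a: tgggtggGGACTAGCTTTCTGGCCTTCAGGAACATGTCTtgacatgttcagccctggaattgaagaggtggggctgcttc
The element was searched by its consensus on both strands with up to 13 bases between its parts, and 20 of all 27025 genes with a promoter in the table (0.074%) held a match. Both parts had to fit the consensus in full, so a part with a mismatch stays in small letters. A match describes letters in this window and shows no binding, and a gene without a match may have its element elsewhere.

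Cdkn1a (ENSMUSG00000023067, chromosome 17, 29090976 to 29100727, plus strand) had 4.98, 5.79 and 4.46 CPM in WT and 293, 278 and 281 in cKO (log2 fold change 5.81, SE 0.086, adjusted p 5.91e-08). Mdm2, which both restrains p53 and is its target, went from 62.97, 64.4 and 63.4 to 355, 367 and 356 CPM (log2 fold change 2.50, SE 0.036, adjusted p 5.91e-08). Ccng1, cyclin G1, went from 131, 136 and 138 to 948, 1032 and 963 CPM (log2 fold change 2.86, SE 0.047, adjusted p 7.51e-08). In none of these did a cKO library come near the WT range. Zmat3, an RNA-binding p53 target, went from 17.5, 16.3 and 20.4 to 356, 360.2 and 356 CPM, and Trp53inp1, a stress protein that supports p53 and autophagy, from 5.61, 4.33 and 6.82 to 242, 269 and 259.6 CPM. Their log2 fold changes were 4.30 (SE 0.082) and 5.52 (SE 0.14). Sesn2, a brake on mTORC1, and Btg2, an antiproliferative gene, rose by 1.90 and 1.85. The rise did not reach every member. Gadd45a, a DNA damage response gene, was not called, and its genotypes overlapped, with 14.8, 13.01 and 15.1 CPM in cKO (log2 fold change 0.24, SE 0.11, adjusted p 0.140). Sesn1 was at 0.04 (adjusted p 0.665).

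Death receptors rose from low levels. Fas, the receptor of Fas ligand, had 0.0449, 0.341 and 0.139 CPM in WT and 20.9, 20.2 and 18.2 in cKO (log2 fold change 6.81, SE 0.29, adjusted p 6.00e-06). Tnfrsf10b, the mouse TRAIL receptor, went from 3.14, 3.65 and 4.18 to 54.5, 55.3 and 52.9 CPM (log2 fold change 3.89, SE 0.10, adjusted p 7.76e-07). Eda2r, the receptor of ectodysplasin A2, rose by 6.59 (SE 0.098) and Phlda3, which inhibits the survival kinase AKT, by 4.12 (SE 0.15). Within the mitochondrial branch, Pmaip1 (Noxa), which neutralises MCL1, rose by 3.04 (SE 0.093). Perp and Ei24 rose by 2.69 and 1.36, and Apaf1, the core of the apoptosome, by 1.20. Bax, the pore-forming executor, had 59.8, 65.9 and 49.7 CPM in WT and 159, 73.2 and 131 in cKO. The groups did not overlap, but cKO replicate 2 stood much nearer WT than the other 2 cKO libraries, and its rise of 1.05 (SE 0.26, adjusted p 0.0185) was not called without WT replicate 1 or without cKO replicate 3 (0.82 to 1.41 over the alternatives). The Bax transcript held 63.5% GC. Bbc3 (Puma) was at 1.38 (SE 0.50, adjusted p 0.0667) and was not called. Pidd1 rose by 0.59 and was called in only 1 of the 6 fits that left out a library, the fit without cKO replicate 2 (0.43 to 0.76 over the alternatives). Dram1, a p53-linked autophagy gene, was the exception and fell, at -1.39 (SE 0.20). Of the wider BCL2 family, 5 of 13 tested members rose and 1 fell, a share of 46.2% called against 36.5% of all genes. The family shares Pmaip1, Bax, Bid and Bbc3 with the p53 genes of cell death, so the counts are not independent. Beside Pmaip1, Bax and Bid (0.32), the rises were in the survival genes Bcl2l1 (0.60) and Mcl1 (0.22), and the fall was in the killer Bcl2l11 (-0.22). The Bcl2l11 call was lost with total-count scaling and without WT replicate 1, WT replicate 2, cKO replicate 1 or cKO replicate 3 (-0.27 to -0.16 over the alternatives), and the Mcl1 call with DESeq2.

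In repair and metabolism, Ercc5, an endonuclease of nucleotide excision repair, rose by 1.99 (SE 0.051) and Polk, a polymerase that copies past damage, by 1.89 (SE 0.071). Polh, another such polymerase, fell, at -0.24 (SE 0.042). Ephx1, a detoxifying epoxide hydrolase, went from 0.359, 0.292 and 0.0928 to 6.05, 6.20 and 7.48 CPM (log2 fold change 4.69, SE 0.28). Cpt1c and Aldh4a1, of fatty acid and proline breakdown, rose by 4.12 and 1.41, Ass1, an enzyme of arginine synthesis, by 1.17, and Lpin1, a phosphatase of lipid synthesis, by 0.80. Xpc (0.22), Ddb2 (-0.28) and Gls2 (-0.19) were not called. Trp53 itself had 332, 330.0 and 278 CPM in WT and 333, 270.5 and 288 in cKO, and the groups overlapped (log2 fold change -0.08, SE 0.095, adjusted p 0.563). Of 10 tested regulators upstream of p53, 1 rose and 4 fell, a share of 50% called against 36.5% of all genes. Prkdc, the DNA-dependent protein kinase, was at 0.31, and the checkpoint kinases Chek1 and Chek2, the deubiquitinase Usp7 and the p53 ligase Cop1 were at -0.33, -0.23, -0.21 and -0.22. With total-count scaling only Chek1 of these 4 was called lower, and Cop1 was also not called without cKO replicate 1 or without cKO replicate 3 (-0.28 to -0.15 over the alternatives). Rpl5 (0.02) and Rpl11 (-0.18), the ribosomal proteins best known to bind MDM2, were not called. Cdkn2a, whose product ARF restrains MDM2, was read 0, 0 and 0 times in WT and 2, 0 and 0 times in cKO, too few to test.

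**Figure D3:**
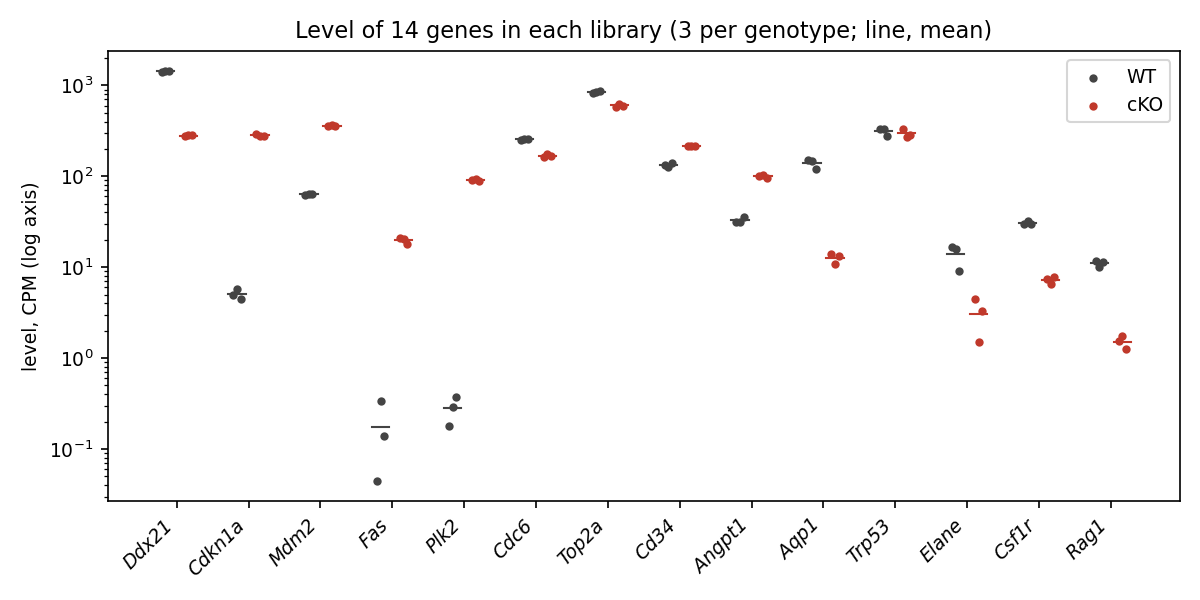
Level in CPM (log axis) of 14 genes in each of the 3 WT and 3 cKO libraries, with a line at the mean of each genotype. Cdkn1a, Mdm2, Fas, Plk2, Cd34 and Angpt1 are higher in all cKO libraries, Ddx21, Cdc6, Top2a, Aqp1, Elane, Csf1r and Rag1 are lower in all, and Trp53 overlaps.

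Most genes of the dividing cell fell, and each called fall in the lists of this paragraph was smaller than 2-fold. Of 43 tested S phase genes 36 fell and 0 rose, with a median log2 fold change of -0.35. Of 52 tested G2/M genes 45 fell and 2 rose, with a median of -0.44. Of 25 genes of the Fanconi anaemia and homologous recombination pathways 17 fell and 1 rose (median -0.31). Mki67, the common proliferation marker, went from 1675, 1703 and 1766 to 1070.0, 1188 and 1114 CPM (log2 fold change -0.61, SE 0.048, adjusted p 8.97e-05). Every cKO library was below every WT library, by a margin that was small beside those of the p53 genes. Cdc6, which loads the replicative helicase, was at -0.60 (SE 0.041), and Gmnn, which stops it being loaded again, at -0.59 (SE 0.041). Exo1, Clspn, Slbp, Dtl, Rad51ap1 and E2f8 lay between -0.59 and -0.38. Among mitotic genes, Anln, needed for the contractile ring, and Cdca3, a trigger of mitotic entry, were at -0.65 and -0.65, Aurka at -0.56 and the kinetochore protein Cenpf at -0.71. Among the recombination genes, Brca1, Brca2 and Fancd2 were at -0.45, -0.45 and -0.45, and Fanca at -0.54. The 2 G2/M genes that rose, Psrc1 (log2 fold change 3.21, SE 0.18) and Gtse1 (log2 fold change 1.58, SE 0.20), are known as p53-linked genes, and Rad51d was the repair gene that rose (0.58).

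The regulators of the cycle split. Of 29 tested cyclins, kinases, inhibitors, RB and E2F genes 7 rose (24.1%) and 15 fell (51.7%), against 20.7% and 15.8% of all genes. D-type cyclins, which drive entry into the cycle on growth signals, rose: Ccnd1 from 19.2, 21.5 and 18.6 to 62.6, 61.2 and 61.9 CPM (log2 fold change 1.65, SE 0.069, adjusted p 5.31e-06) and Ccnd2 from 356, 365 and 364 to 790.1, 819 and 803 CPM (log2 fold change 1.15, SE 0.033, adjusted p 9.91e-07). The cKO libraries of both were far above WT, while Ccnd3 was at -0.06 and not called. The brakes Rb1 and Rbl2 rose by 1.00 and 0.66, and Cdkn2b, an inhibitor of CDK4 and CDK6, by 1.89. Later cyclins fell, with Ccne1 at -0.49, Ccna2 at -0.47 and Ccnb1 at -0.49, as did Cdk1 (-0.48) and Rbl1 (-0.37). In the MYC network 3 of 12 genes rose, 2 fell and 7 were not called. The share called was 41.7%, near the 36.5% of all genes. Mycn, a MYC paralog, rose by 1.68 (SE 0.12), and the MYC antagonists Mxd4 and Mxd1 by 1.34 and 0.59. Mycl fell, at -2.01 (SE 0.26), and Myc was at -0.40 (SE 0.16, adjusted p 0.0940) and not called.

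Promoter letters of the falling genes are shown because cell cycle genes share known elements that the lists did not use. CHR elements, found in promoters of mitotic genes, were searched as TTTGAA or TTCGAA, and E2F elements, found in promoters of replication genes, as TTTGGCGC, TTTCCCGC or TTTGCCGC, both on either strand. A CHR match was found in 36 of 46 G2/M genes with a RefSeq promoter (78.3%), against 21.7% of all 27025 promoters and 16.6% of the 10156 tested genes with one. An E2F match was found in 10 of 31 S phase genes (32.3%), against 2.29% and 4.16%. These are shares of whole lists, not of the genes that fell. Of the 1793 genes called lower with a promoter, 19.85% held a CHR match and 6.75% an E2F match. CCAAT, which can share end bases with either motif, was in 76.1% of G2/M and 71.0% of S phase promoters, against 41.1% of all. CHR matches in the G2/M list gathered at the start, with 14 of 46 genes holding a match that begins in the first 25 bases after it, against 1.3% of tested genes. The shown promoters are those of called members with the smallest p among members with a match in the 80 bases before the start, in RefSeq GRCm38.p6. The match is in capitals as it reads on the gene's strand, so that a match on the other strand shows as its reverse complement. For CHR these are Ckap2l (chr2:129297213-129297292, minus strand), Top2a (chr11:99024190-99024269, minus strand) and Kif11 (chr19:37376302-37376381, plus strand):
Ckap2l: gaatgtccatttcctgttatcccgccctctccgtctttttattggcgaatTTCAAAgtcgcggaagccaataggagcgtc
Top2a: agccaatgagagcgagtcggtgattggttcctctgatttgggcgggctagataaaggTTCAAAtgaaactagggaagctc
Kif11: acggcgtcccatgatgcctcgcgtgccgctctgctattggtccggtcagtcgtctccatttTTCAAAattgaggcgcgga
For E2F these are Dtl (chr1:191575545-191575624, minus strand), Mcm6 (chr1:128359706-128359785, minus strand), Hells (chr19:38930910-38930989, plus strand) and Cdca7 (chr2:72476139-72476218, plus strand):
Dtl: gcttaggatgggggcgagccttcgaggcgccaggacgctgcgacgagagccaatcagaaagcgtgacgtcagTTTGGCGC
Mcm6: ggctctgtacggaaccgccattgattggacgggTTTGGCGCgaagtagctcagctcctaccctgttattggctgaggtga
Hells: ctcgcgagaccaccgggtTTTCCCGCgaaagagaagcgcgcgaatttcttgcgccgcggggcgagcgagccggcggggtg
Cdca7: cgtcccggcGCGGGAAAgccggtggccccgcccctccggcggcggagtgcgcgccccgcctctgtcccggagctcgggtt
Top2a, the DNA topoisomerase of mitotic chromosomes, went from 827, 838 and 876 to 582, 629 and 596 CPM (log2 fold change -0.49, SE 0.043, adjusted p 0.000147), and the spindle motor Kif11 was at -0.58, the chromatin protein Hmgb2 at -0.82 and Ckap2l at -0.61. The ubiquitin ligase adaptor Dtl was at -0.38, the replicative helicase subunit Mcm6 at -0.29, the chromatin remodeller Hells at -0.26 and Cdca7 at -0.28. A match is a description and says nothing on whether a factor was bound.

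**Figure D4:**
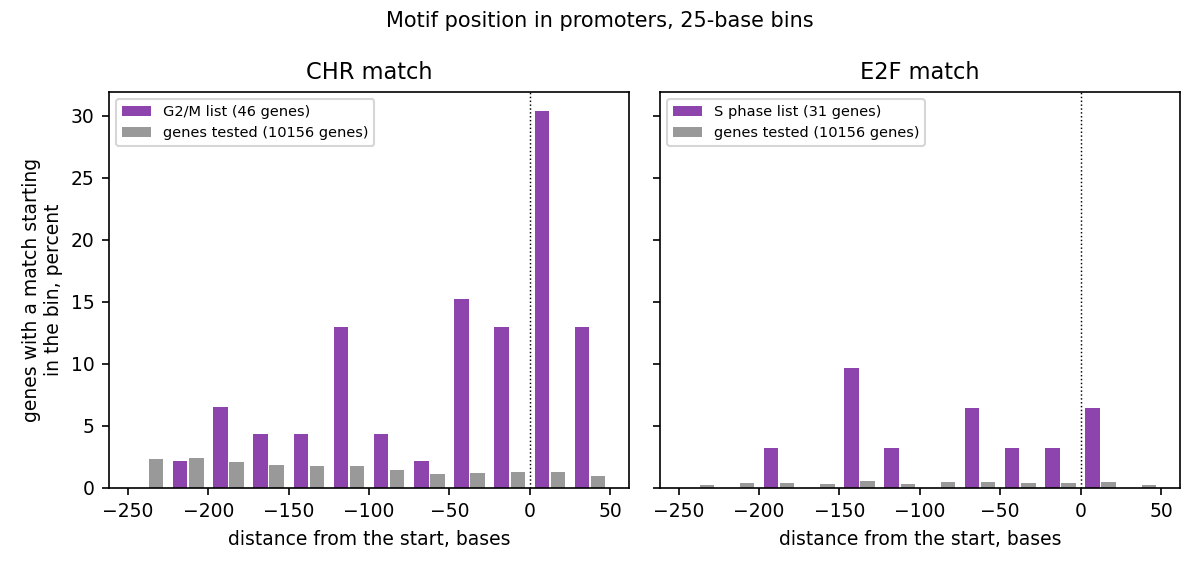
Percent of genes with a CHR match (left) or E2F match (right) beginning in each 25-base bin of the promoter, by distance from the start, for the named list and for the 10156 tested genes with a promoter. CHR matches of the 46 G2/M genes peak at 30.4% in the bin just after the start, against 1.3% of tested genes. The E2F matches, held by 10 S phase genes, are spread along the promoter.

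Most genes that mark blood stem cells rose. Of 20 tested surface and niche genes 14 rose and 3 fell (median 0.75), and of 21 stem cell transcription factors 14 rose and 2 fell (median 0.65). Slamf1 (CD150), which marks stem cells of the mouse liver and marrow, had 2.74, 3.55 and 3.16 CPM in WT and 11.1, 12.6 and 13.7 in cKO (log2 fold change 1.99, SE 0.14, adjusted p 4.56e-05). Cd34 went from 133, 128 and 140.2 to 216, 213 and 217 CPM (log2 fold change 0.69, SE 0.043, adjusted p 3.18e-05). Tek, the receptor of angiopoietins, and its ligand Angpt1 rose by 2.05 (SE 0.098) and 1.61 (SE 0.064). Cd48, which stem cells lack and their progeny carry, rose as well, by 0.76 (SE 0.071). The falls included Cd82 (-0.95) and Kit. Flt3, of multipotent and lymphoid progenitors, had 36.4, 38.1 and 37.6 CPM in WT and 36.6, 36.96 and 37.1 in cKO, and no call was made (log2 fold change -0.02, SE 0.052, adjusted p 0.815).

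Among the transcription factors, Mecom (Evi1), which maintains stem cells, went from 2.38, 1.27 and 2.04 to 12.6, 13.2 and 13.3 CPM (log2 fold change 2.77, SE 0.19, adjusted p 4.62e-05). Hlf, a stem cell factor of the PAR family, went from 19.1, 14.99 and 14.8 to 50.7, 51.7 and 48.4 CPM (log2 fold change 1.62, SE 0.11, adjusted p 3.82e-05). All cKO libraries of both were well above WT. Hoxa9 and its partner Meis1 rose by 1.40 and 1.02, and the ETS factors Erg, Fli1 and Etv6 by 1.01, 0.65 and 0.58. Mllt3, which sustains stem cell self-renewal, and Tal1 fell, at -0.55 and -0.26. Runx1 and Gata2 were at 0.12 (SE 0.043, adjusted p 0.0594) and 0.51 (SE 0.23, adjusted p 0.116) and were not called. Hoxb3, Hoxb4 and Hoxb5 had too few counts to test. Of 10 tested genes of the fetal state 2 rose and 2 fell, a share of 40% called against 36.5% of all genes. The let-7 antagonist Lin28b (0.03) was not called, the RNA-binding Igf2bp2 rose by 0.49, and Bcl11a, which represses embryonic globin, fell, at -0.29.

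Most megakaryocyte genes rose as well. Of 23 tested members 14 rose and 1 fell (median 0.84). Itga2b (CD41) had 57.8, 54.3 and 48.4 CPM in WT and 126, 94.4 and 109.9 in cKO (log2 fold change 1.04, SE 0.11, adjusted p 0.000452), with no overlap between genotypes. The thrombin receptors F2r, F2rl2 and F2rl3 rose by 0.84, 1.36 and 1.69, Plek by 1.04, Rab27b, of platelet granule release, by 0.88, and Thbs1 by 0.85. Pf4 was at -0.05 (SE 0.26, adjusted p 0.894) and Vwf at 0.00 (SE 0.15, adjusted p 0.991), neither called. Tubb1 and Gp9, of late megakaryocytes, were at -0.24 and -0.47 and not called, and P2ry12, the platelet ADP receptor, fell, at -1.48 (SE 0.36), a call lost without WT replicate 2 or without cKO replicate 3 (-1.97 to -1.22 over the alternatives). Some genes of this list and the endothelial genes named further on are shared between stem cells and other lists, so these counts are not independent of each other.

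Erythroid genes moved in both directions. Iron uptake, haem synthesis and membrane genes mostly fell, while the globins and a few late genes rose. Of 23 haem and iron genes 15 fell and 3 rose (median -0.51), and of 23 membrane genes 13 fell and 4 rose (median -0.25). Of 8 tested members of the globin list, which also holds the globin chaperone Ahsp, 5 rose and 0 fell (median 1.41). Tfrc, the transferrin receptor that brings iron into red cell precursors, went from 1247, 1253 and 1336 to 693, 761 and 727 CPM (log2 fold change -0.81, SE 0.048, adjusted p 2.43e-05). Slc11a2, which moves that iron out of endosomes, fell likewise (log2 fold change -0.70, SE 0.045), as did the haem enzymes Urod and Uros (-0.51 and -0.66) and the mitochondrial transporter Abcb10 (-0.50). Alas2, the erythroid enzyme that begins haem synthesis, rose by 1.01 (SE 0.088), Hmox1, which breaks haem down, by 1.50 (SE 0.25), and the haem carrier Slc48a1 by 0.26. The embryonic globins Hbb-y and Hba-x were almost absent from WT. Hbb-y went from 0.0449, 0.195 and 0.186 to 3.14, 4.09 and 4.67 CPM (log2 fold change 4.77, SE 0.35), and Hba-x from 0.0897, 0.195 and 0.186 to 0.958, 0.892 and 1.45 CPM (log2 fold change 2.77, SE 0.39). The adult globin Hbb-bt went from 38.03, 40.6 and 40.2 to 130.2, 113 and 132 CPM (log2 fold change 1.66, SE 0.071). Hba-a1 had 58.6, 48.5 and 14.9 CPM in WT and 50.4, 12.7 and 20.9 in cKO, with no call. It was lowest in WT replicate 3 and cKO replicate 2, the libraries low in GC-rich genes, and its own transcript held 57.2% GC. Globin copies are nearly identical, so how reads were split between them is uncertain.

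At the membrane, Aqp1, a water channel of red cells, had 152, 147 and 121 CPM in WT and 14.02, 10.98 and 13.2 in cKO (log2 fold change -3.46, SE 0.12, adjusted p 2.76e-06). Ermap, Rhd and Add2 were at -0.92 (SE 0.039), -1.18 (SE 0.059) and -0.89, Epb42 and Ank1, of the membrane skeleton, at -0.74 and -0.58, and the scavenger receptor Cd36 at -2.15 (SE 0.27). Slc4a1 (band 3) and the adhesion molecule Bcam rose by 0.58 and 1.85, the Bcam call being lost without WT replicate 2 (1.42 to 2.38 over the alternatives), and Cd44 by 0.28. In all, 2 membrane genes rose without WT replicate 2. Of 20 further erythroid genes 11 fell and 1 rose, with 7 falls without WT replicate 1, 5 without WT replicate 2 and 7 without cKO replicate 3. Hemgn was at -1.03 (SE 0.048) and Prdx2, a red cell peroxidase, at -0.38 (SE 0.031), while Car1 rose by 1.17 (SE 0.071). Of 28 lineage transcription factors 3 rose, Egr1 and Foxo3 (0.69) among them, and 11 fell, with 6 falls without WT replicate 1, WT replicate 2 or cKO replicate 3. Among them Klf1, the master factor of the late red cell programme, had 134, 119.8 and 81.3 CPM in WT and 63.6, 36.8 and 50.02 in cKO (log2 fold change -1.16, SE 0.24, adjusted p 0.00804). The groups did not overlap, and again the lowest library of each was the one low in GC-rich genes, with a GC content of 61.00% for Klf1. Klf1 was called lower under every alternative, the GC offset included. Gfi1b, a repressor of red cells and megakaryocytes, was at -0.78 but was not called without WT replicate 1, WT replicate 2 or cKO replicate 3 (-0.96 to -0.59 over the alternatives). Sox6, which silences embryonic globin, fell, at -0.48 (SE 0.083). GATA motifs were searched as AGATAA or TGATAA on both strands. They were in 8 of 18 membrane gene promoters (44.4%) and 6 of 9 promoters of the globin list (66.7%). Among haem and iron genes 5 of 15 (33.3%) held a match, and among the further erythroid genes 5 of 16 (31.25%). The share was 20.96% of all 27025 promoters, 12.76% of tested genes and 12.16% of genes called lower. Among 16 genes of mast cells, basophils and eosinophils it was 68.75%. They are shown for the called members of the erythroid lists with the smallest p and a match before the start, with the match in capitals: Ermap (chr4:119189996-119190075, minus strand), Hemgn (chr4:46404184-46404263, minus strand) and Rhd (chr4:134864456-134864535, plus strand), from RefSeq GRCm38.p6.
Ermap: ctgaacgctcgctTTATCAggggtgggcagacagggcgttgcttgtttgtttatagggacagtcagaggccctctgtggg
Hemgn: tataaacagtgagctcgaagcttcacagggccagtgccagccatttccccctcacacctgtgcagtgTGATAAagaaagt
Rhd: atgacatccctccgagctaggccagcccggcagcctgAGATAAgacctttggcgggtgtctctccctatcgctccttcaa
These matches, too, only describe the letters of the window.

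Most genes of granulocytes and monocytes fell. Of 21 tested monocyte genes 15 fell and 1 rose, with a median of -1.86, and of 15 granule genes 8 fell and 2 rose (median -0.41). Csf1r, the receptor of macrophage colony-stimulating factor, had 29.8, 32.03 and 29.6 CPM in WT and 7.36, 6.48 and 7.75 in cKO (log2 fold change -2.08, SE 0.091, adjusted p 6.56e-06). Irf8, the factor that commits progenitors to monocytes and dendritic cells, went from 29.7, 28.7 and 25.7 to 7.97, 7.42 and 7.71 CPM (log2 fold change -1.86, SE 0.086, adjusted p 8.41e-06). In both, all cKO libraries lay far below all WT libraries. F13a1, Mpeg1, Cybb, Ly86, Ccr2 and Ctss fell as well, between -3.56 and -1.75. The monocyte decreases numbered 14 to 15 when single libraries were left out. Elane, neutrophil elastase, had 16.6, 15.9 and 9.14 CPM in WT and 4.44, 1.50 and 3.31 in cKO (log2 fold change -2.18, SE 0.38, adjusted p 0.00390), and Prtn3 and Ctsg, its sister proteases, fell, at -1.75 (SE 0.39) and -1.19 (SE 0.080), the Prtn3 call being lost without cKO replicate 3 (-2.16 to -1.44 over the alternatives). The granule decreases numbered 5 without WT replicate 1, 5 without WT replicate 2 and 4 without cKO replicate 3. Mpo had 784, 752 and 564 CPM in WT and 517, 285 and 398 in cKO (log2 fold change -0.81, SE 0.22, adjusted p 0.0237), a fall that was not called without WT replicate 1, WT replicate 2 or cKO replicate 3 (-1.02 to -0.60 over the alternatives). Its lowest library in each genotype was again the one low in GC-rich genes. Csf3r, the receptor of granulocyte colony-stimulating factor, rose by 0.71 and Ltf by 4.03. Cebpa and Spi1, the factors that set up the myeloid programme, were not called. Cebpa had 12.8, 14.2 and 13.04 CPM in WT and 12.8, 13.05 and 13.7 in cKO, and Spi1 had 25.7, 27.7 and 18.4 and 29.9, 19.8 and 24.5, and in both the genotypes overlapped. Mast cell genes were called at 33.33%, near the 36.5% of all genes. Of 12 tested 3 rose (5 without cKO replicate 2) and 1 fell (Prg2, -0.36). Gzmb, granzyme B, rose by 2.77, and Cpa3, mast cell carboxypeptidase, went from 23.5, 21.7 and 23.5 to 34.2, 40.8 and 36.6 CPM (log2 fold change 0.70, SE 0.083, adjusted p 0.000661).

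Of 25 tested early lymphoid genes 10 fell, 3 rose (5 without cKO replicate 2) and 12 were not called (median -0.41), and the summed level of the list was 292 to 298 CPM in WT and 289 to 336 in cKO, overlapping ranges. Rag1, which starts antigen receptor rearrangement, went from 11.7, 10.2 and 11.3 to 1.52, 1.74 and 1.27 CPM (log2 fold change -2.86, SE 0.14, adjusted p 1.06e-05). Il7r, the interleukin-7 receptor, went from 7.09, 6.28 and 7.05 to 1.52, 1.58 and 1.68 CPM (log2 fold change -2.09, SE 0.12, adjusted p 2.21e-05). Ebf1 and Pax5, which commit cells to the B lineage, fell, at -2.86 (SE 0.32) and -1.95 (SE 0.26), as did the adaptor Blnk (-2.39) and the chromatin organiser Satb1 (-0.41). Mef2c and Ltb rose by 0.39 and 1.38, and Notch1 was at 0.85 (SE 0.29, adjusted p 0.0555).

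**Figure D5:**
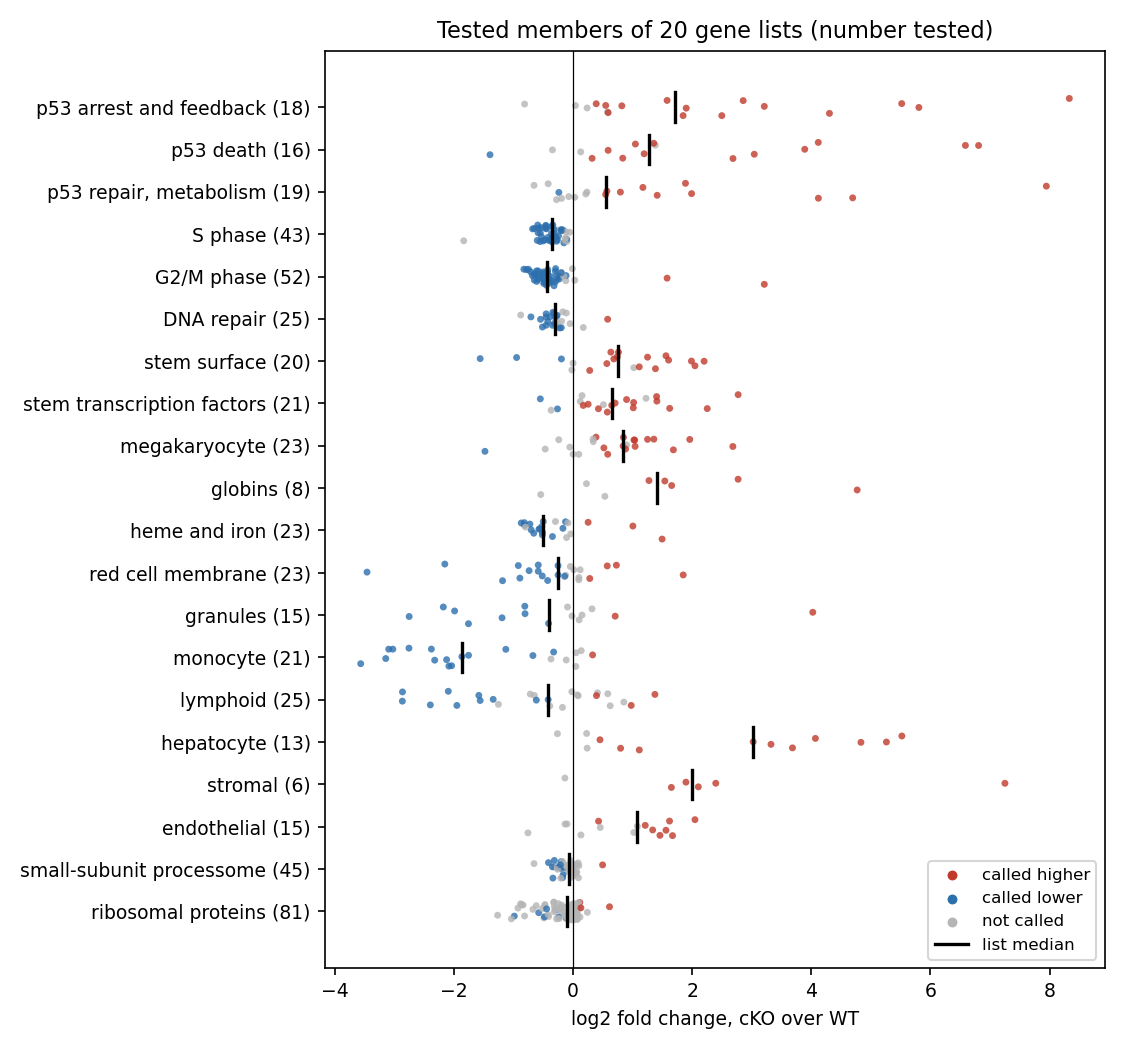
Log2 fold change of cKO over WT for every tested member of 20 gene lists, coloured by call, with a bar at the list median and the number tested in brackets. The p53, stem cell, megakaryocyte, globin, hepatocyte, stromal and endothelial medians lie above 0, from 0.549 to 3.025, and the S phase, G2/M and monocyte medians lie below it.

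Markers of hepatocytes and stroma, cells outside the gate, were low in both genotypes and higher in cKO. The hepatocyte list summed to 23.7 to 26.9 CPM in WT and 68.7 to 72.2 in cKO, with 10 of 13 tested members called higher and 11 of 24 not tested. Its median of 3.025 became 1.97 when its 5 floor members were put at the bound. Low-level genes enter the test through whichever genotype is higher, so the counts called in these lists follow in part from the filter. The sums include members not tested. Over all tested genes 20.7% were called higher. Alb went from 0.404, 0.243 and 0.603 to 10.5, 13.45 and 12.3 CPM and Afp from 0.807, 0.973 and 0.789 to 14.2, 14.02 and 15.1 CPM, and Apoa1 was read 1, 1 and 2 times in WT and 14, 20 and 9 times in cKO. The stromal list summed to 14.2 to 18.2 and 30.7 to 39.4 CPM, with 5 of 6 tested members called higher and 8 of 14 not tested. In it Postn, a matrix protein, rose by 2.40, Reln by 2.10, Col1a2 by 1.65 and Col4a1, of basement membranes, by 1.90, and Des was at least 6.04-fold higher, but the defining fibroblast genes were near 0. Col1a1 was read 0, 1 and 0 times in WT and 4, 2 and 1 times in cKO, and Col3a1 4, 1 and 1 and 9, 6 and 5. Pdgfrb was at -0.13 and not called. Of the endothelial list 8 of 15 tested members rose, 0 fell and 6 of 21 were not tested. The rises were in Tek, Esam and Pecam1, which stem cells also carry, with Eng (1.62), Emcn (1.46), Tie1 (1.21), Sox18 and Cdh5. The Sox18 and Cdh5 calls were lost without WT replicate 2 or without cKO replicate 3 (1.43 to 2.26 over the alternatives for Sox18, 0.96 to 1.67 over the alternatives for Cdh5), and that of Cdh5 also without cKO replicate 1 or cKO replicate 2. The defining endothelial gene Kdr had 3.09, 2.87 and 3.16 CPM in WT and 2.44, 3.04 and 3.04 in cKO, with no call, and Stab2, of liver sinusoids, was read 13, 5 and 4 times in WT and 9, 5 and 5 times in cKO. Of 16 macrophage genes 4 were tested, of which 1 rose and 2 fell. Among those with few reads, C1qa was read 1, 0 and 0 times in WT and 0, 0 and 0 times in cKO, and Cd5l 2, 0 and 2 and 0, 2 and 1. Whether carry-over of liver cells bears on any other difference was not tested. Y-linked genes also differed, with all 4 higher in cKO and sums of 133 to 147 and 263 to 299.6 CPM, so the share of male cells and the genotype cannot be told apart. Without the genes of chromosomes X and Y, 2945 genes rose and 2240 fell.

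Genes that build ribosomes, where DDX21 is known to work, had list medians near the median of all genes, with more falls than rises. Of 45 small-subunit processome genes 1 rose and 11 fell (median -0.065), of 37 large-subunit assembly genes 5 rose and 9 fell (median -0.10), and of 81 ribosomal protein genes 3 rose and 7 fell (median -0.10). The shares called were 26.7%, 37.8% and 12.35%, against 36.5% over all genes. Messenger RNA of nucleolar proteins says nothing direct on ribosomal RNA, which poly(A) selection leaves out. Utp20, which handles pre-ribosomal RNA, rose by 0.50 (SE 0.049), and Brix1 and Mak16, of the early large subunit, by 0.27 and 0.37. Gnl3 (nucleostemin), a stem cell nucleolar protein, fell, at -0.27 (SE 0.040), as did Pelp1 (log2 fold change -0.50, SE 0.11). Of 18 nucleolar helicases, Ddx21 and Ddx51 (-0.23) fell and Ddx50 rose, the Ddx51 call being lost without WT replicate 1, WT replicate 2 or cKO replicate 3 (-0.29 to -0.17 over the alternatives). Among 17 RNA polymerase I genes 3 rose and 5 fell, with the initiation factor Rrn3 at 0.39 (SE 0.038) and the promoter-binding factor Ubtf at -0.51 (SE 0.090). Among the ribosomal protein genes, the changes with the smallest p were in relatives of the core set. Rps27l, a p53 target, rose by 0.61 (SE 0.037, adjusted p 2.72e-05), and Rpl22l1 fell, at -0.98 (SE 0.051, adjusted p 1.34e-05). Of 12 hosts of small nucleolar RNAs 6 fell, Snhg5 (-0.55) and Gas5 (-0.32) among them, and Snhg15 (0.34) rose. Of 12 genes of the 7SK and P-TEFb system, which DDX21 is known to act on, 5 fell, Hexim2 (-0.93) and Larp7 (-0.29) among them, and Aff4 (0.37) rose. The shares called were 16.7% for nucleolar helicases and 47.1% for RNA polymerase I genes. They were 58.3% for the hosts and 50% for the 7SK and P-TEFb genes, against 36.5% over all genes. The number of falls moved with the libraries and with the treatment of GC content. With the GC offset it was 20 for ribosomal proteins, 20 for the small and 15 for the large subunit, and without the 2 libraries low in GC-rich genes it was 25, 15 and 11. Without cKO replicate 3 it was 4, 4 and 2, and without cKO replicate 1 it was 24, 15 and 11. Over all tested genes the falls numbered 3557 with the GC offset and 2856 without the 2 libraries low in GC-rich genes, against 2360 here. They numbered 1368 without cKO replicate 3 and 2708 without cKO replicate 1. The GC offset also gave 7 falls among nucleolar helicases, 8 among RNA polymerase I genes and 9 among 7SK and P-TEFb genes.

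Receptors and their signalling changed gene by gene. The share of tested members called was 53.6% for receptors, 58.8% for immediate early, 42.3% for interferon-stimulated and 72.7% for inflammatory genes. Over all genes it was 36.5%. Of 28 receptors 6 rose and 9 fell. Il2rg, the common gamma chain, rose by 0.97 and Tgfbr2 by 0.52, while Ifngr1 and Il6ra were at -0.56 and -0.47. Cish, a feedback inhibitor that STAT5 induces, had 5.43, 4.62 and 4.27 CPM in WT and 23.8, 22.7 and 20.8 in cKO (log2 fold change 2.23, SE 0.11, adjusted p 1.26e-05), and the kinase Pim1 rose by 0.70 (SE 0.085). Of 15 tested genes of STAT5 targets and cytokine feedback, Cish and Pim1 included, 6 rose and 3 fell (60% called). Of 13 tested Notch pathway genes 4 rose, 3 fell and 6 were not called (53.85% called), and Notch3 rose by 2.76 (SE 0.18). Of 17 immediate early genes 8 rose and 2 fell, led by Egr1, which went from 2.33, 3.31 and 2.41 to 37.2, 28.2 and 34.2 CPM (log2 fold change 3.63, SE 0.17, adjusted p 8.41e-06), and with Jun at 1.30, Fos at 0.26 (SE 0.23, adjusted p 0.404) and Klf4, also a monocyte gene, at -3.02. The increases of this list numbered 4 without WT replicate 2. Interferon-stimulated genes showed no common direction, with 7 of 26 higher and 4 lower. The RNA sensors Rigi and Ifih1 rose by 0.90 (SE 0.13) and 0.41 (SE 0.067), Cmpk2 and Irf9 fell, at -1.57 and -0.35, and Isg15, Ifit1 and Ifit3 had too few counts to test. Of 11 inflammatory genes 6 rose (3 without WT replicate 1, WT replicate 2 or cKO replicate 3), among them Icam1 (1.48), Tnf (0.86) and Il6 (1.53).

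Stress and metabolic programmes other than p53 had calls in both directions, except that genes of the mitochondrial genome had only falls. The share of tested members called was 55% for the integrated stress response, 27.8% for the unfolded protein response and 46.7% for NRF2 genes. It was 29.6% for lipid synthesis, 45% for glycolysis and 23.1% for the mitochondrial genome, against 36.5% of all genes. Ddit4, a brake on mTORC1 that both p53 and the integrated stress response can raise, had 1.08, 0.925 and 0.650 CPM in WT and 30.7, 28.1 and 26.1 in cKO (log2 fold change 4.99, SE 0.16, adjusted p 1.64e-06). The amino acid genes that ATF4 drives went the other way, with 9 of 20 members of the integrated stress response list lower and 2 higher, Ddit4 and Vldlr (1.45). Asns, asparagine synthetase, was at -0.53 (SE 0.036, adjusted p 4.56e-05), Pck2 at -1.04, Aldh18a1, of proline synthesis, at -0.45 and Atf4 itself at -0.20, the Atf4 call being lost with the GC offset. Of the unfolded protein response, the chaperone Hspa5 fell (log2 fold change -0.33, SE 0.037), and 13 of 18 members were not called. Of 15 NRF2 genes 3 rose and 4 fell (7 with the GC offset). Srxn1 rose by 0.85 and Sod1 fell, at -0.54. In lipid synthesis 2 of 27 rose and 6 fell, with the sterol carrier Stard4 at 0.20 and the regulator Insig1 at -0.48. In glycolysis 4 of 20 rose and 5 fell, with 2 rises without WT replicate 2 or without cKO replicate 3 and 8 falls without WT replicate 3. Ldhb rose by 1.81 (SE 0.12) and Pfkm fell, at -0.64 (SE 0.084), while Gapdh (-0.02) and Ldha (-0.01) were not called. Of the 13 mitochondrial genes 3 fell, ND1 (-0.23), ND2 (-0.21) and ND3 (-0.45), with 1 fall by total-count scaling and 6 with the GC offset.

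Of 16 genes tied to senescence 9 were tested, and all were called, 6 higher and 3 lower, against 36.5% of all genes. The other 7 had too few counts to test, and low-level genes enter the test through whichever genotype is higher. The list shares Cdkn1a with the p53 genes and Hmgb2 with mitosis. Serpine2, a secreted protease inhibitor, had 0.897, 0.779 and 1.16 CPM in WT and 67.4, 69.3 and 65.3 in cKO (log2 fold change 6.14, SE 0.12, adjusted p 1.72e-07). Glb1, the lysosomal beta-galactosidase, rose by 0.51 (SE 0.077), and Lmnb1, of the nuclear lamina, fell, at -0.19 (SE 0.030), but not with total-count scaling. Of 19 integrins 9 rose and 4 fell. Itgal and Itgb2, which together form LFA-1, rose by 1.12 (SE 0.050) and 1.59 (SE 0.083), Itgav by 0.90 and Itga9 by 1.12, while Itga1, a collagen receptor chain, was at -2.82 (SE 0.24). Itga4, of the homing receptor VLA-4, fell, at -0.17 (SE 0.043), a call lost without WT replicate 1, cKO replicate 1 or cKO replicate 3 (-0.22 to -0.11 over the alternatives). Of 18 tested imprinted genes 7 rose and 2 fell, a share of 50% called against 36.5% of all genes (median 0.40). H19, 1 of the falls, went from 46.2, 44.5 and 41.8 to 20.8, 18.8 and 20.4 CPM (log2 fold change -1.14, SE 0.070, adjusted p 3.00e-05). Igf2r rose by 0.76 (SE 0.039). Of 32 chromatin regulators 7 rose and 8 fell, a share of 46.9% called against 36.5% of all genes. The falls numbered 14 with the GC offset, 13 without cKO replicate 1 and 5 without cKO replicate 3. Tet1, which oxidises methylated cytosine, went from 21.8, 21.3 and 20.2 to 50.9, 56.9 and 51.97 CPM (log2 fold change 1.34, SE 0.068, adjusted p 1.29e-05), the methyltransferases Dnmt3a and Dnmt3b rose by 0.44 and 0.63, and Tet2, often mutated in blood cancers, was at 0.01 (SE 0.050, adjusted p 0.942) and not called. The histone demethylase Kdm6a fell, at -0.49 (SE 0.043).

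The largest single changes, taken by size and not by function, again ran from near silence in WT. The 15 largest increases held p53 targets (Plk2, Sulf2, Fas and Eda2r) beside genes on no list. Zfp365, of genome stability, was read 1, 7 and 2 times in WT and 1858, 1962 and 1768 times in cKO. Oxtr, the oxytocin receptor, went from 0.179, 0.0973 and 0 to 23.8, 21.3 and 21.7 CPM (log2 fold change 7.82, SE 0.31) and the cartilage matrix gene Matn1 from 0.404, 0.0973 and 0.186 to 63.4, 36.5 and 49.5 CPM (log2 fold change 7.71, SE 0.37). In these 3 every cKO library exceeded the highest WT library many times over. Ano3, of the anoctamin family, was at least 185-fold higher against the floor (2, 1 and 1 counts in WT, 543, 667 and 597 in cKO). The giant cadherin Fat1 rose by 7.85, the matrix protein Hmcn2 by 7.47, Prrg4 by 6.50, Zfp750, an epidermal factor, by 6.34, the leukotriene receptor Ltb4r2 by 6.27 and Dglucy by 6.26. The decreases were smaller and held blood lineage genes beside others. Lhfpl2 was at -3.05 (SE 0.27), Septin4 at -2.80 (SE 0.15), Muc6, a gastric mucin, at -2.64 (SE 0.12), the immunoglobulin heavy chain gene Ighm at -2.21 (SE 0.11), Prss50 at -2.14 (SE 0.19), Phyhip at -2.11 (SE 0.28) and haptoglobin (Hp), a granule and plasma protein, at -2.06 (SE 0.14). Aqp1, Rag1, Mpeg1, Ddx21, Elane, Cybb and Csf1r were also among the 15 largest decreases and are given with their groups.

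Of called genes on no list, those with the smallest p included Gpx3, a secreted glutathione peroxidase, which went from 3.14, 3.16 and 3.11 to 121, 96.97 and 109.9 CPM (log2 fold change 5.12, SE 0.10, adjusted p 2.57e-07). Inka2 rose by 5.81 (SE 0.095). Ptpn14, a phosphatase that restrains YAP, rose by 2.86 (SE 0.059), the gap junction protein gene Gja1 by 2.37 (SE 0.053), Rnf169, a ligase of DNA break repair, by 1.75 (SE 0.043), and Smarca2, an ATPase of the SWI/SNF remodeller, by 2.01 (SE 0.049). All had every cKO library above every WT library. The most abundant messages are given per length, for scale. In RPKM, counts scaled for exon length and depth, Eef1a1, which brings transfer RNA to the ribosome, was at 4788 in WT and 5117 in cKO, and COX1, of the mitochondrial respiratory chain, at 4834 and 5084. Hsp90ab1, a chaperone, was at 2106 and 2122, and Ptma at 1313 and 1213.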

How the data were processed

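RNA-seq libraries of sorted mouse fetal liver LK cells were analysed from the raw gene counts that the authors deposited. Per the submitters' processing notes, STAR, featureCounts, DESeq2 and the build mm10 were used, with no versions. The strand setting and the treatment of reads that map to several places are not given in the sources used here. A second table the authors deposited holds a normalized signal, which was checked to be each count divided by 1 constant per library for 11908 genes, and a log2 ratio of that signal to the WT mean, per the file headers. Neither entered a test. Of the gene IDs 99.5% were found in GENCODE M21 (GRCm38), which gave symbols, gene types and transcript GC content (longest transcript), the last for 99.9% of tested genes. Human libraries of the study were left out as another experiment.

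Groups came from the sample titles. Genes were filtered with filterByExpr (edgeR 4.0.16, R 4.3.3), scaled by TMM factors and tested between 3 cKO and 3 WT libraries with glmQLFit and glmQLFTest, with Benjamini-Hochberg adjustment and a threshold of 0.05. The SE of a log2 fold change is its size divided by the square root of F. A group with at most 3 counts in every library was treated as at the detection floor, and folds against it are lower bounds, for counting error only. An exact permutation test of 3 against 3 samples cannot go below a two-sided p of 0.1 and was not used. The fitting script was tested on simulated data with known fold changes. Motifs were searched in RefSeq promoters (GRCm38.p6).

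The 54 gene lists, the members and the tests were chosen with earlier results of these data known. Lists are described by counts and medians, with no test. Named genes are Ddx21, the 15 largest called increases and 15 largest called decreases with a mean of at least 5 CPM, no overlap between genotypes and an established symbol, the 10 most abundant transcripts per length, list members (all of short lists, those with the smallest p of long ones), and up to 10 called genes on no list. Some genes that this rule would name are not reported here. Alternatives were RLE, upper-quartile and total-count scaling, no filter or a mean of at least 50 counts, DESeq2 1.42.0, limma-voom with sample weights (limma 3.58.1), a replicate block, no genes of chromosomes X and Y, a 2-fold minimum, and leaving out each library. A GC offset (lowess span 0.3) and leaving out both libraries low in GC-rich genes were added after seeing the data. Figures were drawn with matplotlib 3.10.9.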

Additional observations from a re-analysis of the deposited data

How the results depend on the processing

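Against 3083 increases and 2360 decreases, the decreases moved most. They numbered 3729 with limma-voom and sample quality weights and 3557 with the GC offset, which was chosen after seeing the data and kept 96.1% of the reported calls. Leaving out 1 library gave 2349 to 2963 increases and 1368 to 2708 decreases. The decreases moved by over 1.5 times without WT replicate 1 (1498), without WT replicate 2 (1480) and without cKO replicate 3 (1368), while the increases did not move that far in any of these fits. A 2-fold minimum left 1085 increases and 269 decreases. Without both libraries low in GC-rich genes, also chosen after seeing the data, there were 2978 and 2856. Total-count scaling moved the median log2 fold change of all genes to 0.066 and gave 3565 and 1612. DESeq2 gave 2410 and 2310, and no filter on low counts 2927 and 2632.

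The replicate numbers did not pair the libraries. Deviations of same-numbered libraries from their genotype means correlated at 0.316, -0.177 and 0.0131, and cKO replicate 2 correlated best with WT replicate 3 (0.408). A fit with the replicate number as a block gave 2810 increases and 2356 decreases.

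Ddx21 fell under all 17 alternatives, from -2.40 with the GC offset to -2.28 with total counts. The 30 largest changes were called in the same direction under all of them, except that 3 lie on chromosome X or Y and had no value without those chromosomes. Distinct list members called numbered 548, and 431 to 586 when 1 library was left out. Of 573 called list members and named genes, 412 were called in the same direction under every alternative with a value and 161 were not. Of the list counts under the alternatives, 1549 stayed within 1.5 times the reported count and 287 did not. The cause of these shifts was not tested. Pairs of replicates differed beyond sampling noise, with a chi-square per degree of freedom from 1.96 (WT replicates 1 and 2) to 25.1 (cKO replicates 1 and 2).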

Other observations

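Long intergenic RNAs, which the report does not group, moved more often up than down. Of 308 tested 76 rose and 32 fell, against 2789 and 2201 of 12167 protein-coding genes. The 2 types were not matched for level, and tested genes at low levels also moved more often up. Of 2609 genes under 1 CPM in WT 653 rose and 70 fell, and of 3899 genes at 1 to 10 CPM 942 rose and 355 fell. Whether the direction belongs to long intergenic RNAs beyond their level was not tested. The genes named in this paragraph were chosen after their values were seen. Trp53cor1 (lincRNA-p21), known as a p53 target next to Cdkn1a, went from 0.135, 0.341 and 0.278 to 6.58, 6.52 and 6.76 CPM (log2 fold change 4.70, SE 0.22, adjusted p 8.46e-06). Pvt1, the neighbour of Myc, went from 17.98, 16.8 and 18.8 to 35.1, 37.2 and 36.2 CPM (log2 fold change 1.02, SE 0.068, adjusted p 4.34e-05). Malat1 and Neat1, which stay in the nucleus at speckles and paraspeckles, rose by 0.69 and 0.70, and Dubr by 2.65. Redrum, a long RNA of red cell precursors, and Mir17hg, the host of a microRNA cluster that MYC drives, fell, at -0.38 and -0.37. All adjusted p are from edgeR's quasi-likelihood test. Strand use in counting is not given in the sources used here, so reads of an overlapping gene on the other strand cannot be told apart.

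The aryl hydrocarbon receptor list gave 2 calls in 5 tested members, with 4 further members not tested, a share of 40% against 36.5% of all genes. With the GC offset 1 of the 5 rose and 4 fell. Ahr, the receptor itself, had 7.85, 8.08 and 8.77 CPM in WT and 10.1, 10.3 and 10.7 in cKO (log2 fold change 0.33, SE 0.088, adjusted p 0.0244), and Cyp1a1, its best known target, went from 1.48, 1.70 and 1.58 to 0.174, 0.446 and 0.590 CPM (log2 fold change -1.96, SE 0.33, adjusted p 0.00339). In both the genotypes did not overlap, and receptor and target moved in opposite directions. The Ahr call was lost with DESeq2, with no filter on low counts, and without WT replicate 1, WT replicate 2, cKO replicate 2 or cKO replicate 3 (0.27 to 0.39 over the alternatives).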
